A study of Mus musculus with 6 samples.

Results

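The p53 target genes described here are 31 mouse genes that the transcription factor p53 is known to activate or that act beside it. They were listed by name as known members of the pathway, with earlier results of these data known, and matched by gene name in the authors' deposited table of one comparison. All 31 had a row there, among 17110 genes in all. The study sorted embryonic stem cells of the mouse line TG2A by flow cytometry. The cells carried the red fluorescent reporter DsRed2 under the control of MERVL, a retroviral element of the mouse genome that is transcribed in two-cell embryos and in rare stem cells in culture. The labels list 3 DsRed2-positive and 3 DsRed2-negative samples, all of the same line and reporter genotype and all kept in serum medium with leukemia inhibitory factor, with the replicates collected on different dates. The labels do not say whether the reporter line is 1 clone.

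The measurement was sequencing of polyadenylated RNA from the sorted cells in bulk, so fewer cells of a type and less RNA per cell cannot be told apart. The authors' deposited table gives each gene a mean normalized count over libraries, a log2 fold change with its standard error, and a p-value. It names neither the groups nor the numerator, and it was read as a comparison of the sorted groups because the labels hold only these. "Positive" and "negative" below are therefore the sign as deposited, not a sorted group. A gene is called when its DESeq2 adjusted p-value is under 0.05. A table of counts also holds all 31 genes, but its 6 columns match no sample label, so values per library are not analysed here.

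The labelled cell type was checked against marker genes. Of 15 embryonic stem cell markers, 14 had a row, with mean counts between 1073 and 38163 in the authors' deposited table, 9 called positive and 1 called negative. Only 2 of 22 two-cell-stage genes had a row, and 1 of them, Calcoco2, was called. It was positive, at a log2 fold change of 3.10 ± 0.14 (SE) in the authors' deposited table (DESeq2 adjusted p-value 3.28e-107). The reading of the table as a comparison of MERVL reporter groups thus rests on few of its defining genes. Of the trophectoderm, fibroblast and primitive endoderm markers with a row, 0 were called positive. Called negative were 7 of 10 trophectoderm genes, 5 of 8 fibroblast genes and 2 of 6 primitive endoderm genes, and the other 4 primitive endoderm genes were not called. The shares over all genes, to set beside these and the stem cell markers, were 15.9% negative and 14.6% positive. The fibroblast genes Col3a1, Dcn and Lum had no row used here, and Col1a1 had a mean count of 20.9 in the authors' deposited table. Tagln of the same list had a mean count of 1849 and a log2 fold change of -5.96, and the trophectoderm keratin genes Krt8 and Krt18 had mean counts of 1903 and 1586 in the authors' deposited table. Whether such cells were present, and whether their RNA had any part in the p53 target values, was not tested.

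p53 is a sequence-specific activator that is kept low by the ubiquitin ligase Mdm2, itself one of its targets. After DNA damage or other stress it binds paired half-sites near its target genes, whose products halt the cell cycle, promote apoptosis, assist DNA repair or adjust metabolism. In mouse embryonic stem cells p53 is abundant, it limits self-renewal after damage, and it is known to activate Dux, a factor that drives the two-cell-like state.

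Promoter windows from RefSeq (GRCm38.p6), each 300 bases around an annotated start, were matched by symbol for 24 of the 31 targets. They were scanned for the p53 half-site consensus, 10 bases long and its own reverse complement, so that 1 scan covers both strands, with no mismatch allowed. A half-site was found in 9 of the 24 genes (37.5%), against 8.26% of the 11507 genes of the table with a window and 8.36% of all 32851 windows. A pair of half-sites, at most 13 bases apart with at most 2 mismatches in all and none at the fixed C and G of each, was found in 5 of the 24, against 4.55% of genes with a window and 4.09% of all windows. The scans overlap, since an exact half-site can be 1 member of a pair. The list was drawn up from known p53 targets, so these shares describe it and are not independent of how it was made.

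The stretches are shown because they put the consensus beside genes of every outcome. Capitals mark the half-sites, exact or within a pair, and each stretch runs 5′ to 3′ on the strand of its gene. The first 4 genes were called negative, the next 2 positive, and the last 3 were not called.
Ccng1, chr11:40755442-40755501, minus strand: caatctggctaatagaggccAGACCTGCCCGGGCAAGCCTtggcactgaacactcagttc
Mdm2, chr10:117710915-117710964, minus strand: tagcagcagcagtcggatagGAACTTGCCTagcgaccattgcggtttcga
Gadd45a, chr6:67037418-67037483, minus strand: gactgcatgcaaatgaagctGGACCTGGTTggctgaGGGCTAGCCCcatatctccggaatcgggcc
Polk, chr13:96519389-96519437, minus strand: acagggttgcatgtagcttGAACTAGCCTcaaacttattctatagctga
Bax, chr7:45467059-45467119, minus strand: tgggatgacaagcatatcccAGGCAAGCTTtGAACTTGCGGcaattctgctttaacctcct
Ei24, chr9:36797335-36797364, minus strand: ccagctgccccgtgcggcccGGGCATGCCC
Sesn1, chr10:41887233-41887295, plus strand: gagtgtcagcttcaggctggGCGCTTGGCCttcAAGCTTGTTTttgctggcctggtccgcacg
Gtse1, chr15:85859935-85859964, plus strand: gggaaaccggGAGCAAGTTGGGGCTTGCCT
Aen, chr7:78895917-78895946, plus strand: atagacaggtagccgaagccGGGCTTGTCC

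The best pair among these belonged to Ccng1 and Gtse1, each with 1 mismatch and a gap of 0 bases. The exact half-site of Ccng1 began 185 bases before the start, that of Mdm2 186, that of Bax 201 and that of Gadd45a 40. Of the called targets with a window, 4 of 11 negative and 2 of 5 positive genes held an exact half-site, and so did 3 of 8 that were not called. Half-sites were thus present among genes of each outcome. A match is a description of letters, and sites outside the windows were not looked for.

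Of the 31 targets, 18 were called, 13 negative and 5 positive, and 13 were not called. Over all genes 30.5% were called, 15.9% negative and 14.6% positive, and among the 10082 genes whose mean count reached 200 the share was 32.8%. The called share of the targets was 58.1%, and 58.6% for the 29 targets with a mean count of at least 200. Because the list was made with earlier results of these data known, this share is a description. The median log2 fold change of the 31 targets was -0.19, with quartiles of -0.62 and 0.018, against 0.0097 over all genes. The authors' own calls, which add an absolute log2 fold change over 0.5, marked 10 targets down and 3 up in the authors' deposited table, against 12.1% and 9.4% of all genes. Only Ddit4 and Gdf15 exceeded 1 in absolute log2 fold change.

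**Figure D1:**
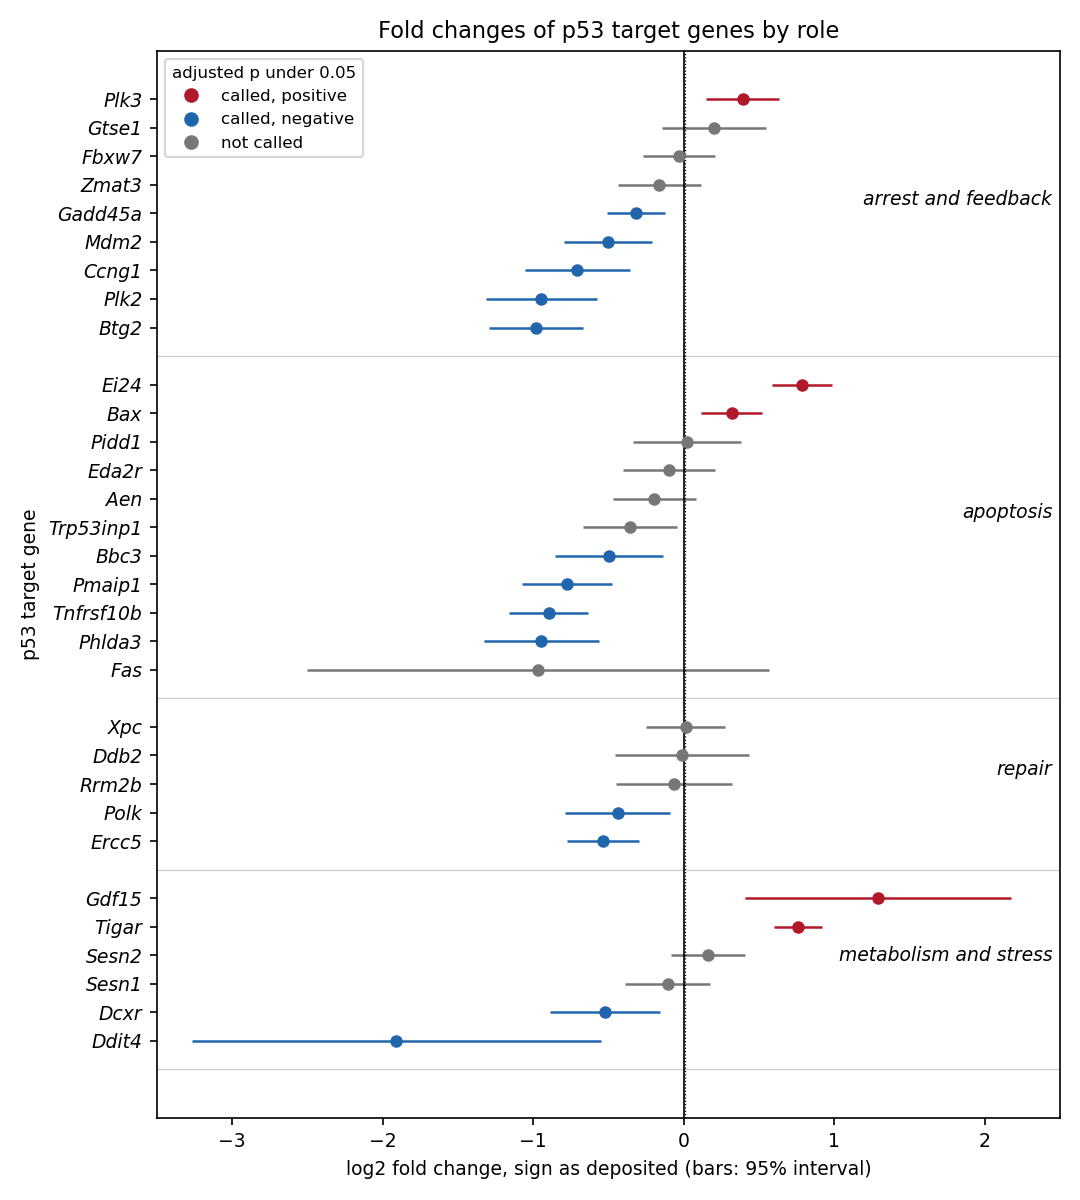
Log2 fold changes (x axis, sign as deposited) of the 31 p53 targets (y axis), grouped by role, with 95% intervals computed from the authors' standard errors as bars. Blue points were called negative (13 genes), red points positive (5) and grey points were not called (13), and the dotted line is the median of all genes (0.0097).

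The targets were expressed over a wide range. Mean normalized counts in the authors' deposited table ran from 7.57 for Fas to 13766 for Ccng1, with a median of 1086. Per kilobase of exons (GENCODE M21), the mean normalized count was highest for Bax at 4196, followed by Ccng1 at 3920, Gtse1 at 2174 and Ddit4 at 1484. The lowest per kilobase were Fas at 3.67, Rrm2b at 22.5 and Gdf15 at 31.0. The spread of these levels between libraries is not analysed here, so neighbours in the order are not distinguished. Exon lengths join all annotated exons of a gene, whichever transcript is expressed, so the order depends in part on the annotation.

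**Figure D2:**
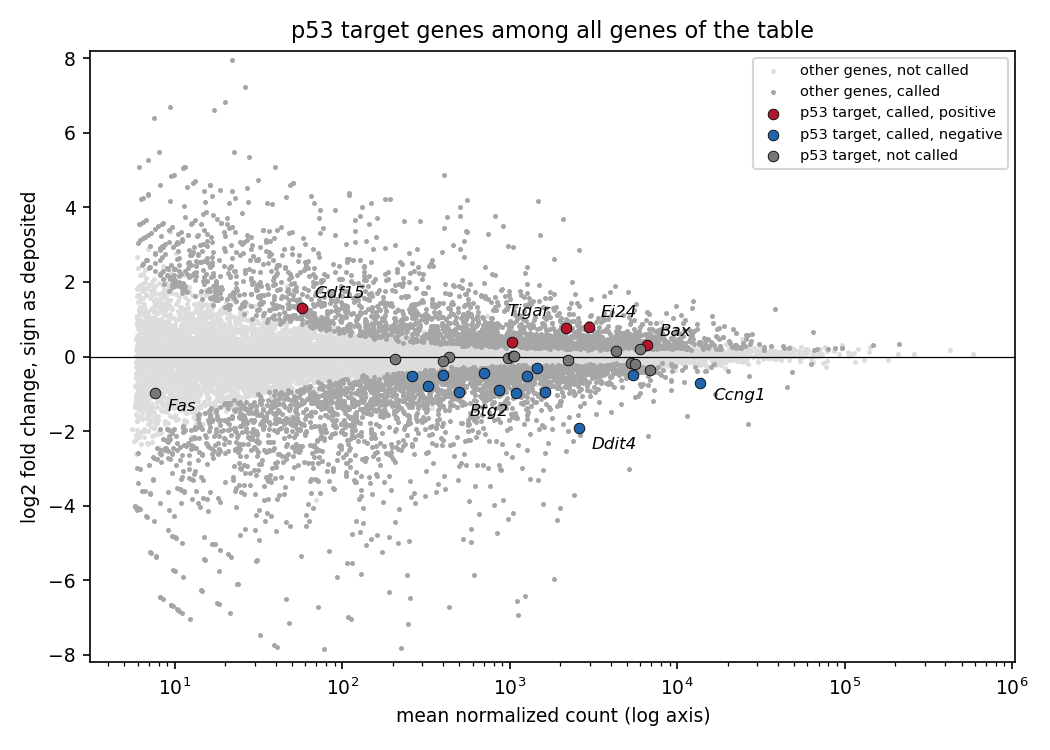
Log2 fold change (y axis, sign as deposited) against mean normalized count (x axis, log scale) for all 17110 genes, with the 31 p53 targets drawn large and coloured by call. Most targets lie at counts above 200, within 1 log2 unit of 0, and below 0 more often than above.

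Among the genes for arrest of the cell cycle and for feedback on p53, 5 of 9 were called negative and 1 positive. Over all genes, the shares were 15.9% negative and 14.6% positive. The median log2 fold change of the 9 genes was -0.32. Mdm2, the ligase that degrades p53, had a log2 fold change of -0.504 ± 0.15 (standard error, SE) in the authors' deposited table (DESeq2 adjusted p-value 0.0038). The matching ratio was 0.705, with a 95% interval from 0.575 to 0.864. Ccng1, which encodes cyclin G1 and takes part in feedback through Mdm2, stood at -0.71 ± 0.18 (SE) in the authors' deposited table (DESeq2 adjusted p-value 0.000481). Mdm2 and Ccng1 were thus called in the same direction, at ratios of 0.705 and 0.613. Among further p53-induced inhibitors of p53, Cop1 was called negative at -0.21 in the authors' deposited table (DESeq2 adjusted p-value 0.0352). Ppm1d at -0.14 and Rchy1 at 0.076 in the authors' deposited table were not called.

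The antiproliferative gene Btg2, whose product binds the deadenylase complex, had the most negative value of this group, -0.98 ± 0.16 (SE) in the authors' deposited table (DESeq2 adjusted p-value 1.5e-08). The polo-like kinase genes went opposite ways. Plk2 stood at a log2 fold change of -0.95, and its 95% interval ran from -1.32 to -0.58 (DESeq2 adjusted p-value 5.28e-06 in the authors' deposited table). Plk3 had 0.39 with a 95% interval from 0.15 to 0.64 (DESeq2 adjusted p-value 0.00713 in the authors' deposited table), and these intervals do not overlap. Gadd45a, a stress protein of growth arrest and repair, was called negative at a smaller size, -0.32 ± 0.099 (SE) in the authors' deposited table.

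The other 3 genes of this group were not called. Gtse1, which encodes a microtubule-associated protein that restrains p53, had a log2 fold change of 0.20 ± 0.18 (SE) in the authors' deposited table. The RNA-binding protein gene Zmat3 stood at -0.16 ± 0.14 (SE) in the authors' deposited table. Fbxw7, which encodes a substrate receptor of a ubiquitin ligase, lay nearest to 0, at -0.030 with a 95% interval of the ratio from 0.831 to 1.15.

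Among the apoptosis genes, 4 of 11 were called negative and 2 positive, against 15.9% and 14.6% of all genes. Their median log2 fold change was -0.36. BH3-only proteins trigger the mitochondrial route. Pmaip1, encoding Noxa, had a log2 fold change of -0.78 ± 0.15 (SE) in the authors' deposited table (DESeq2 adjusted p-value 4.01e-06). Bbc3, encoding Puma, had -0.498 ± 0.18 (SE) in the authors' deposited table (DESeq2 adjusted p-value 0.0244). Bid, a further BH3-only gene outside the 31 targets, stood at 0.0047 ± 0.11 (SE) in the authors' deposited table and was not called. Bax, the pore-forming protein on which BH3-only proteins act, was positive, at 0.32 ± 0.10 (SE) in the authors' deposited table (DESeq2 adjusted p-value 0.00945). The interval of the Bax ratio, from 1.08 to 1.44, does not overlap those of Pmaip1, from 0.474 to 0.719, and Bbc3, from 0.553 to 0.908. The call of Bax was lost when fold changes were centred on ribosomal protein genes, where its log2 fold change was 0.23 (adjusted p-value 0.0835).

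Mdm2 and Bbc3 lay on either side of the authors' fold-change limit of 0.5, at -0.504 and -0.498. Mdm2 is marked down in the authors' deposited table and Bbc3 is not, although both passed the threshold on the adjusted p-value. Their ratios, 0.705 and 0.708, were alike.

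The death receptor genes could be compared only in part. Tnfrsf10b, the receptor for the ligand Trail, had a log2 fold change of -0.90 ± 0.13 (SE) in the authors' deposited table (DESeq2 adjusted p-value 4.83e-10). Fas was close to the floor of the table with a mean count of 7.57, and its value of -0.97 had a 95% interval from -2.50 to 0.57. Eda2r, the receptor for an ectodysplasin isoform, had -0.099 ± 0.16 (SE) in the authors' deposited table. Fas was not called and its interval spans 0, while the interval of the Eda2r ratio ran from 0.755 to 1.15.

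Phlda3, which encodes a competitive inhibitor of Akt, stood at -0.95 ± 0.19 (SE) in the authors' deposited table (DESeq2 adjusted p-value 1.12e-05). Ei24, which encodes a membrane protein of the endoplasmic reticulum, had the opposite sign, 0.79 ± 0.10 (SE) in the authors' deposited table (DESeq2 adjusted p-value 2.06e-13). It was the most positive apoptosis gene, with a ratio of 1.72 (95% interval of the log2 fold change from 0.59 to 0.98).

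No call was made for Trp53inp1, Aen or Pidd1. Trp53inp1, whose product promotes p53 phosphorylation, had -0.36 ± 0.16 (SE) in the authors' deposited table (p-value 0.024, DESeq2 adjusted p-value 0.0728). The call was gained by Trp53inp1 under ribosomal centring, at -0.45 (adjusted p-value 0.0174). The nuclease gene Aen stood at -0.19 ± 0.14 (SE) in the authors' deposited table. Pidd1, a scaffold for caspase activation, stood at 0.022 ± 0.18 (SE).

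Among the repair genes, 2 of 5 were called negative and 0 positive, against 15.9% and 14.6% of all genes. The share called in either direction was 40%, from only 5 genes, against 30.5%, and the median log2 fold change was -0.062. Ercc5, the nuclease gene of nucleotide excision repair, had -0.53 ± 0.12 (SE) in the authors' deposited table (DESeq2 adjusted p-value 9.36e-05). Polk, a polymerase gene of translesion synthesis, had -0.44 ± 0.18 (SE) in the authors' deposited table (DESeq2 adjusted p-value 0.0462), which is just inside the threshold. The damage-recognition genes were not called: Xpc stood at a log2 fold change of 0.014, and the interval of its ratio ran from 0.843 to 1.21. Ddb2 had -0.011, with a wider interval from 0.729 to 1.35. Rrm2b, which encodes a p53-induced subunit of ribonucleotide reductase, had -0.062 ± 0.20 (SE) in the authors' deposited table.

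The metabolic and stress genes held both ends of the range, from -1.91 to 1.29, with a median log2 fold change of 0.027. Of the 6 genes, 2 were called negative and 2 positive, against 15.9% and 14.6% of all genes. Ddit4, an inhibitor of the growth kinase complex mTORC1, had the most negative value of all 31 targets, -1.91 in the authors' deposited table. Its standard error of 0.69 was also the largest of any target with a mean count of at least 200, so the ratio of 0.266 had a 95% interval from 0.104 to 0.682 (DESeq2 adjusted p-value 0.0224 in the authors' deposited table). Gdf15, a secreted stress cytokine, had the most positive value, 1.29 ± 0.45 (SE) at a mean count of 57.5 in the authors' deposited table (DESeq2 adjusted p-value 0.0169). Both extremes thus came with wide intervals, and that of Gdf15 reached from a ratio of 1.33 to 4.53.

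Tigar, which encodes a phosphatase that lowers glycolytic flux, was the most precisely measured target. Its log2 fold change was 0.76 ± 0.081 (SE) in the authors' deposited table (DESeq2 adjusted p-value 4.06e-19), a ratio of 1.70 (95% interval from 1.52 to 1.90). Dcxr, a carbonyl reductase gene, had -0.52 ± 0.19 (SE) in the authors' deposited table (DESeq2 adjusted p-value 0.0198). The sestrin genes, whose products restrain mTORC1 and oxidative stress, were not called. Sesn1 stood at -0.11 ± 0.15 (SE) in the authors' deposited table, and Sesn2 at 0.16 ± 0.13 (SE). Sesn3, outside the 31 targets, was not called either, at -0.38 ± 0.18 (SE) in the authors' deposited table (p-value 0.0341, DESeq2 adjusted p-value 0.096). Its 95% interval ran from -0.73 to -0.028.

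Most uncalled targets had intervals that left out changes larger than 1.5-fold. Of the 12 with a mean count of at least 200, 11 had a 95% interval inside a 1.5-fold change either way. Trp53inp1 was the exception, with a lower bound of the ratio of 0.629. Larger changes than these bounds are outside the intervals, while smaller ones remain possible. The 1.5-fold bound is wider than several called changes, such as the ratios of 0.705 for Mdm2 and 1.25 for Bax. For these 12 targets the standard error exceeded between 29.4% (Sesn1) and 96.9% (Gtse1) of genes with a similar mean count.

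The roles overlapped in their values. Median log2 fold changes were -0.32 for arrest and feedback, -0.36 for apoptosis, -0.062 for repair and 0.027 for metabolism and stress, against 0.0097 over all genes. Positive and negative calls stood side by side in the arrest, apoptosis and metabolic groups, and the difference between roles was not tested. Under ribosomal centring, a shift of 0.093, the metabolic median turned to -0.065.

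**Figure D3:**
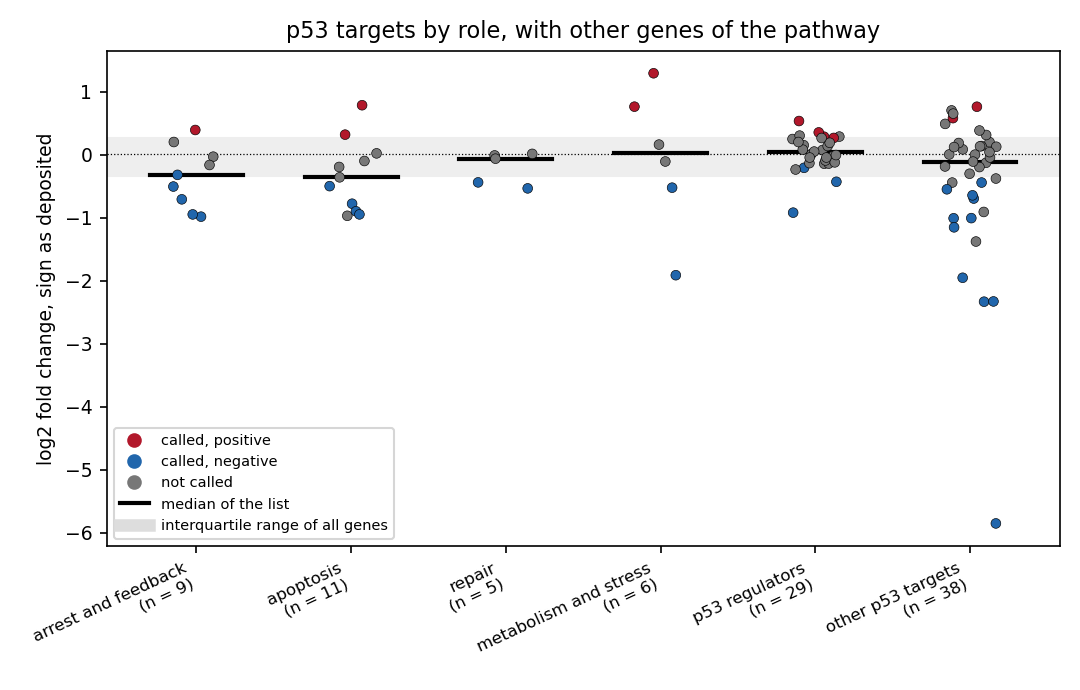
Log2 fold changes (y axis, sign as deposited) of the p53 targets by role and of the other pathway lists (x axis), with a black bar at each median and a grey band for the interquartile range of all genes (-0.33 to 0.27). Arrest and apoptosis medians lie near the lower edge of the band (-0.32 and -0.36), and the regulators cluster around their median of 0.051.

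The regulators of p53, which act upstream of it or bind it, were read as a separate list. Of 30 listed genes 29 had a row, with 4 called positive, 3 called negative and a median log2 fold change of 0.051, which turned to -0.042 under ribosomal centring. The called share was 24.1%, near the 30.5% of all genes, and the difference was not tested. Trp53, which encodes p53 itself, had a log2 fold change of 0.25 ± 0.17 (SE) in the authors' deposited table (DESeq2 adjusted p-value 0.273). The inhibitor gene Mdm4 had 0.29 ± 0.17 (SE) in the authors' deposited table (DESeq2 adjusted p-value 0.193). Neither was called, and their 95% intervals allowed log2 fold changes from -0.077 to 0.58 and from -0.039 to 0.62.

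Usp7, a deubiquitinase that stabilises Mdm2 and p53, was the most clearly positive regulator, at 0.54 ± 0.084 (SE) in the authors' deposited table (DESeq2 adjusted p-value 3.59e-09). The checkpoint kinase genes Chek1 and Chek2 stood at 0.27 and 0.29, with standard errors of 0.072 and 0.094 in the authors' deposited table. Mdc1, a mediator of the damage checkpoint, had 0.36 ± 0.14 (SE). Called negative were the kinase gene Hipk2 at -0.43, the ligase gene Cop1 at -0.21 and Cdkn2a at -0.92 in the authors' deposited table. Cdkn2a encodes separate proteins from overlapping frames, one of which inhibits Mdm2, and its mean count was 58.0.

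Further p53 targets outside the 31 were taken from a list of 40 genes, of which 38 had a row. Of these, 11 were called negative and 2 positive, against 15.9% and 14.6% of all genes. The called share in either direction was 34.2%, near the 30.5% of all genes, but most of the calls were negative. That difference between directions was not tested. Their median log2 fold change was -0.12. Cdkn1a, the inhibitor of cyclin-dependent kinases that is the best known arrest target, had -0.44 ± 0.21 (SE) in the authors' deposited table (p-value 0.0396, DESeq2 adjusted p-value 0.108). It was not called, and its 95% interval ran from -0.86 to -0.021.

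Thbs1, Ptpn14, Perp and Sfn each lay below Ddit4, the most negative of the 31 targets. Thbs1, a secreted matrix protein gene, had -5.85 ± 0.62 (SE) in the authors' deposited table, and Ptpn14, a phosphatase gene that restrains Yap, had -1.95 ± 0.17 (SE). Perp, a desmosome-associated gene, and Sfn, an epithelial 14-3-3 gene, both stood at -2.33 in the authors' deposited table. Apaf1, the scaffold of the apoptosome, had -0.69 ± 0.12 (SE) in the authors' deposited table. Thbs1, Perp and Sfn are also genes of matrix or epithelial cells, and the trophectoderm and fibroblast markers had medians of -2.95 and -1.86, a link that was not tested. Steap3, a ferrireductase gene, and Gls2, a glutaminase gene, were positive, at 0.76 and 0.58 in the authors' deposited table.

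Many p53 targets had larger standard errors than genes of similar abundance. Each target was set beside the genes whose mean count lay within 1.5-fold of its own. For 22 of 31 the standard error was above the median of those genes, for 15 it was above that of 75% of them, and for 2 it was below that of 75%. The median target exceeded 73.6% of its neighbours, the median of the 29 regulators 56.7% and that of the 38 further targets 80.4%.

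Ddit4 was the extreme, with a standard error of 0.69 against a median of 0.107 for genes of similar count, above 99.95% of 2158 genes. Ccng1 exceeded 97.1% of its neighbours, Gtse1 96.9%, Plk2 93.6%, Trp53inp1 93.3% and Mdm2 90.0%. At the other end, Tigar exceeded 5.73% and Gadd45a 23.8%. The standard error carries the spread between libraries, but which libraries differed is not analysed here.

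**Figure D4:**
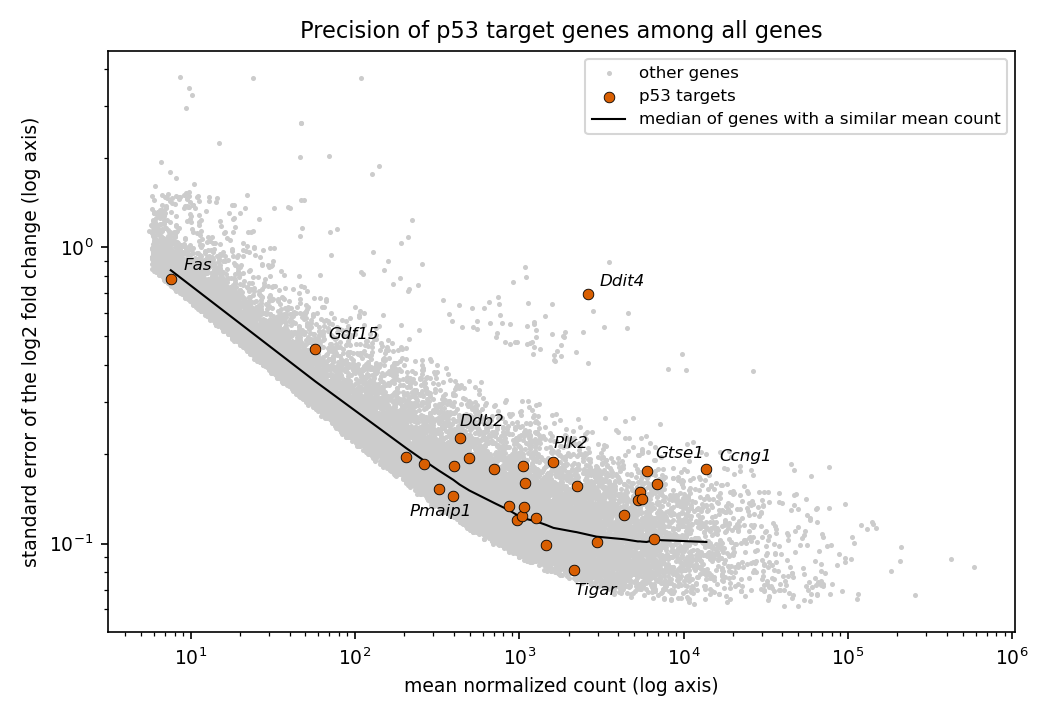
Standard error of the log2 fold change (y axis, log scale) against mean normalized count (x axis, log scale) for all genes, with the 31 p53 targets in orange and a black line for the median of genes within 1.5-fold of each target's count. Of the targets, 22 lie above the line, and Ddit4 stands far above it at 0.69.

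Exons of 7 targets overlap those of another gene in GENCODE M21, so their reads could be shared with that gene. For 6 of them the other gene lies on the opposite strand, and the counting is not stated to use strand. For Bax the other gene, Gm45808, lies on the same strand, where strand does not separate reads, and covers 12.2% of the exon length. The overlap covers 23.8% of the exon length of Ddb2 (with Acp2) and 19.1% of Gadd45a. For Rrm2b, Ei24, Tigar and Plk3 it was between 3.32% and 8.04%.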

How the data were processed

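RNA was measured in 3 DsRed2-positive and 3 DsRed2-negative samples, sequenced as paired ends on a DNBSEQ instrument per the labels. Trimmomatic 0.39, STAR 2.7.11b, RSEM 1.3.3 and DESeq2 1.45.3 with GRCm39 are listed, per the submitters' processing notes. Model formula, reference group and annotation release are not given in the sources used here. The authors deposited the mean normalized count (a signal pooled over libraries), the log2 fold change with its standard error on the log2 scale, a test score, a p-value and an adjusted p-value. The score that the authors deposited equalled the fold change divided by its standard error within 5.77e-07. The 6 count columns match no sample label and were not used, so depth per library and replicate spread by sorted group are not analysed here.

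Calls use the deposited adjusted p-value over 17110 genes, and the authors' own calls matched that threshold with the 0.5 limit with 0 exceptions. Intervals (95%) are normal intervals from the deposited standard errors. Alternatives with recomputed Wald p-values and Benjamini-Hochberg adjustment used Python 3.11.15 and scipy 1.17.1. They were run on simulated normal fold changes with the deposited standard errors, which checks the code and not the model. Exon lengths and overlaps came from GENCODE M21 by gene ID (16795 genes), and promoters from RefSeq GRCm38.p6. Named genes were all members, Trp53, Mdm4 and Cdkn1a, and of each further pathway list up to 5 called genes in each direction with the smallest adjusted p-value. Bid, Ppm1d, Rchy1, Sesn3 and the named marker genes fall outside this rule and were chosen after their values were seen. The members and all lists were chosen with earlier results of these data known.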

Additional observations from a re-analysis of the deposited data

How the results depend on the processing

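No paired analysis was possible because none of the 6 columns of counts could be tied to a sample. The fits that leave out each replicate and the replicate block were therefore not run, and whether 1 library decides a value is not analysed here. Of 123 values of single targets under a minimum mean count of 50, recomputed adjustment and centring on all genes or on 75 ribosomal protein genes, 119 kept direction and call. The exceptions came from ribosomal centring: Bax lost its call (0.23), Trp53inp1 gained one (-0.45), and the uncalled Pidd1 (-0.070) and Xpc (-0.079) changed sign. The medians of the metabolic targets (-0.065) and the p53 regulators (-0.042) changed sign there too, as a shift of 0.093 exceeds both. Fas has no value with a minimum mean count of 50.

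With an absolute log2 fold change over 0.5, 3 targets and 1609 of all genes were called positive. With a limit of 1, this left 1 of 31 targets positive and 1 negative, because the stricter limit itself removes calls. Of the 17110 genes, 957 were then called positive and 1315 negative, larger shares than those of the targets. All other counts of calls stayed within 1.5 times under the alternatives named here and an adjusted p-value of 0.01. Depth per library is not analysed here, and its part in the wide intervals of the low-count targets Fas and Gdf15 was not tested.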
